A study of Mus musculus with 3 samples.

Results

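The genes of glycolysis and the targets of hypoxia-inducible factor (HIF) were followed in NIH3T3 cells, a mouse embryonic fibroblast line, on 3 one-colour expression arrays. One array came from cells cultured for 24 h without additions (None), one from cells given 20 μM AR7 and one from cells given 20 μM BMS614 for 24 h. AR7 is the parent molecule of the study's activators of chaperone-mediated autophagy and BMS614 is a selective antagonist of retinoic acid receptor alpha, and the comparison asks how these genes differed between the arrays of the treated and untreated cells. All cultures were wild type and grown to confluency in serum-containing medium before treatment. Both compounds were dissolved in DMSO, and no label says whether the None culture received the solvent, so the compound and its solvent cannot be told apart against None.

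The set holds 37 genes of 20656 that could be named on the arrays, listed by symbol for their place in the pathway, with earlier results of these data known. They fall into 10 genes of glucose uptake and the preparatory steps of glycolysis, 6 genes of its payoff steps, 5 genes of lactate formation and export and of pyruvate and fructose-2,6-bisphosphate control, 4 HIF subunits and prolyl hydroxylases, and 12 other HIF targets. The arrays carried 64 probes for them on 74 spots, with 1 probe for 21 genes and several for 16. No member probe was saturated and no member spot carried an outlier mark.

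Glycolysis splits glucose into pyruvate, first spending ATP to make triose phosphates and then earning it back, and lactate dehydrogenase regenerates the NAD+ that keeps the pathway running. HIF is a pair of a regulated alpha subunit and a stable partner. In oxygen, prolyl hydroxylases mark the alpha subunit for destruction, and when oxygen falls it gathers in the nucleus, binds the short core A/G-CGTG and raises genes of glucose uptake, glycolysis, angiogenesis, mitophagy and collagen modification. Because the oxygen switch acts on the protein, HIF activity is usually read from its targets and not from the message of its own subunits. Fibroblast lines in culture run glycolysis at a high rate even in air.

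Values are log2 intensities after background correction and quantile normalization of the 3 arrays, and a difference is the log2 level on one array minus that on another. A gene with several probes is given by its brightest one unless stated. The levels of different probes are not comparable, so levels were compared only between arrays for one probe. With 1 array per condition there is no replicate and no test, and fewer cells making a message and less message per cell cannot be told apart. As an error, each difference carries the SD of differences between spots of the 266 probes that the arrays print 10 times, taken at the same signal. It covers spot-to-spot error within a slide and leaves out culture, labelling and hybridization. A gene was counted as past the fold at 1.2-fold, a log2 difference of 0.263.

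The arrays had 55681 probes each, of which 61.25% were well above background with AR7, 61.82% with BMS614 and 55.4% without additions. All 11 fibroblast markers listed were well above background on the 3 arrays. Of the other lineages, Epcam and Cldn4 of epithelium and Tek of endothelium were above it on no array, whereas Itgam, Cd3e and Kdr were above it on all 3. In full, 3 of 5 epithelial, 3 of 5 leukocyte and 2 of 4 endothelial markers were above it on all arrays. The 11 fibroblast markers were all lower with AR7 than with BMS614, with a median difference of -0.12, and the 3 measured epithelial markers were lower too, with a median of -0.13. Of the 3 measured leukocyte markers, Itgam and Cd3e were 0.33 and 0.25 higher with AR7 and Adgre1 differed by -0.08. Their part in the results on AR7 against BMS614 below was not tested.

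The upstream windows of the members whose differences are described most closely below are printed here to show what sequence lies before genes that differed in opposite directions. Each runs from 250 bases before to 50 bases after a RefSeq start on GRCm38.p6, 5′ to 3′ on the gene's strand. Capitals mark the cores ACGTG and GCGTG and their reverse complements CACGT and CACGC. A core within the palindrome CACGTG, which other basic helix-loop-helix factors also bind, is read on both strands and overlaps it.
Slc2a1, chr4:119108495-119108794, plus strand: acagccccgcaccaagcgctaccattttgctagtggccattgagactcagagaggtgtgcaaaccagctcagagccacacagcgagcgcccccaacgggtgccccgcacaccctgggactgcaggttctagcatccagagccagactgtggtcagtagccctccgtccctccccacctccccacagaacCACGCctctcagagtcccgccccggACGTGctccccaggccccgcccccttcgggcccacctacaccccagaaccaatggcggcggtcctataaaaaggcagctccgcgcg
Hk1, chr10:62340372-62340671, minus strand: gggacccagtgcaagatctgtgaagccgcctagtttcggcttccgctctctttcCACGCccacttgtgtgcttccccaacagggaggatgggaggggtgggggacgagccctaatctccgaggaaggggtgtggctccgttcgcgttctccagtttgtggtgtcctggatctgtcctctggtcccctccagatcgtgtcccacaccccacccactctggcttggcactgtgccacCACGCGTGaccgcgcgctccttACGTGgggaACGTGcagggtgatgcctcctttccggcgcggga
Eno2, chr6:124769624-124769923, minus strand: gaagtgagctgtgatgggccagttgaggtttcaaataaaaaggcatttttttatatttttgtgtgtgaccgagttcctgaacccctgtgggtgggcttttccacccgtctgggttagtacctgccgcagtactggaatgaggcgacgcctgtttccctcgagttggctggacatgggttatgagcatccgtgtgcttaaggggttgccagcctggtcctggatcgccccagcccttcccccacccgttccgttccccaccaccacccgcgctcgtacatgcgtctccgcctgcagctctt
Hif1a, chr12:73907617-73907916, plus strand: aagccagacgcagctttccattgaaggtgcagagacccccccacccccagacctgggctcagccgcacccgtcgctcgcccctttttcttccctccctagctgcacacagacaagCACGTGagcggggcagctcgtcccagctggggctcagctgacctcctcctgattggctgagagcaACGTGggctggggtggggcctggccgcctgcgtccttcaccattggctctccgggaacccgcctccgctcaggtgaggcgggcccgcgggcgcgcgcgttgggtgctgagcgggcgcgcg
Bnip3, chr7:138909457-138909756, minus strand: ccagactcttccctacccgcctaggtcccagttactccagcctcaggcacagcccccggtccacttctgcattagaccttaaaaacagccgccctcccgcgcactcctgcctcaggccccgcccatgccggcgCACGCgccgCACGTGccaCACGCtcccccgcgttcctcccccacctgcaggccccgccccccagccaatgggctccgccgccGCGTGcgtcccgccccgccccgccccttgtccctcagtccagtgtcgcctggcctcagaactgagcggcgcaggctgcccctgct
P4ha1, chr10:59323046-59323345, plus strand: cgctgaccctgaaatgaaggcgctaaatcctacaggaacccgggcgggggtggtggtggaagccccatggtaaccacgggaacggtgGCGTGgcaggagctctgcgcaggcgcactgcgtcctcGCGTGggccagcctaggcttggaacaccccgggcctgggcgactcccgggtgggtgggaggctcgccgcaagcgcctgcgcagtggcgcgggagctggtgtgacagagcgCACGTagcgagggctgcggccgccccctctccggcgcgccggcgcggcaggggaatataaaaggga
Ak4, chr4:101419039-101419338, plus strand: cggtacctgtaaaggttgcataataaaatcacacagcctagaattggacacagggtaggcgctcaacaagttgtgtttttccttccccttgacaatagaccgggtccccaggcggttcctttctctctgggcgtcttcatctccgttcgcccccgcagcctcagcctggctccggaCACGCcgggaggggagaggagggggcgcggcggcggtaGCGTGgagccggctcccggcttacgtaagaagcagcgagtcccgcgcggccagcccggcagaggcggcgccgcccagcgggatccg
Ak4, chr4:101419453-101419752, plus strand: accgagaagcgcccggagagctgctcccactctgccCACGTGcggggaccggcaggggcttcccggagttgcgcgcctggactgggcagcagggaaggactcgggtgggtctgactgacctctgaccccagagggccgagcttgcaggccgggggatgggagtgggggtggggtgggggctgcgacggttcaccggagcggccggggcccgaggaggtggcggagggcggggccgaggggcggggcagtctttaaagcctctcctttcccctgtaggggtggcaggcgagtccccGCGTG

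A core was found in at least 1 window of 31 of the 34 members with a window in the table (91.2%), against 46.7% of all 27025 genes with one. Counted by window, 43 of 55 member windows (78.2%) held a core against 43.8% of 32851. CACGTG was present for 6 of the 34 members (17.6%) and for 8.09% of all genes. Slc2a1 and Hif1a, which differed between the compounds in opposite directions, had 2 cores each, and the Eno2 window had none. Hk1 has a further start in the table, whose window, not printed, held no core either. These are letter matches and not binding sites, and the members were listed as HIF targets or glycolytic genes, so a higher share than among all genes is a description of the list. Probe sequences were not used here.

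Of the 37 genes, 34 were measured well above background on all 3 arrays. Ankrd37 was above it on the AR7 and BMS614 arrays only, and Egln3 and Mxi1 on none. Over the 34 genes the array with AR7 had the highest of the 3 levels for 20, the array with BMS614 for 7 and None for 7. The lowest level lay on the BMS614 array for 20 genes, on None for 9 and on the AR7 array for 5. Over all 13802 named genes measured in the same way, AR7 was highest for 30.7% and BMS614 lowest for 34.8%. The shifts behind this order were small, as the plot of levels by array shows.

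**Figure D1:**
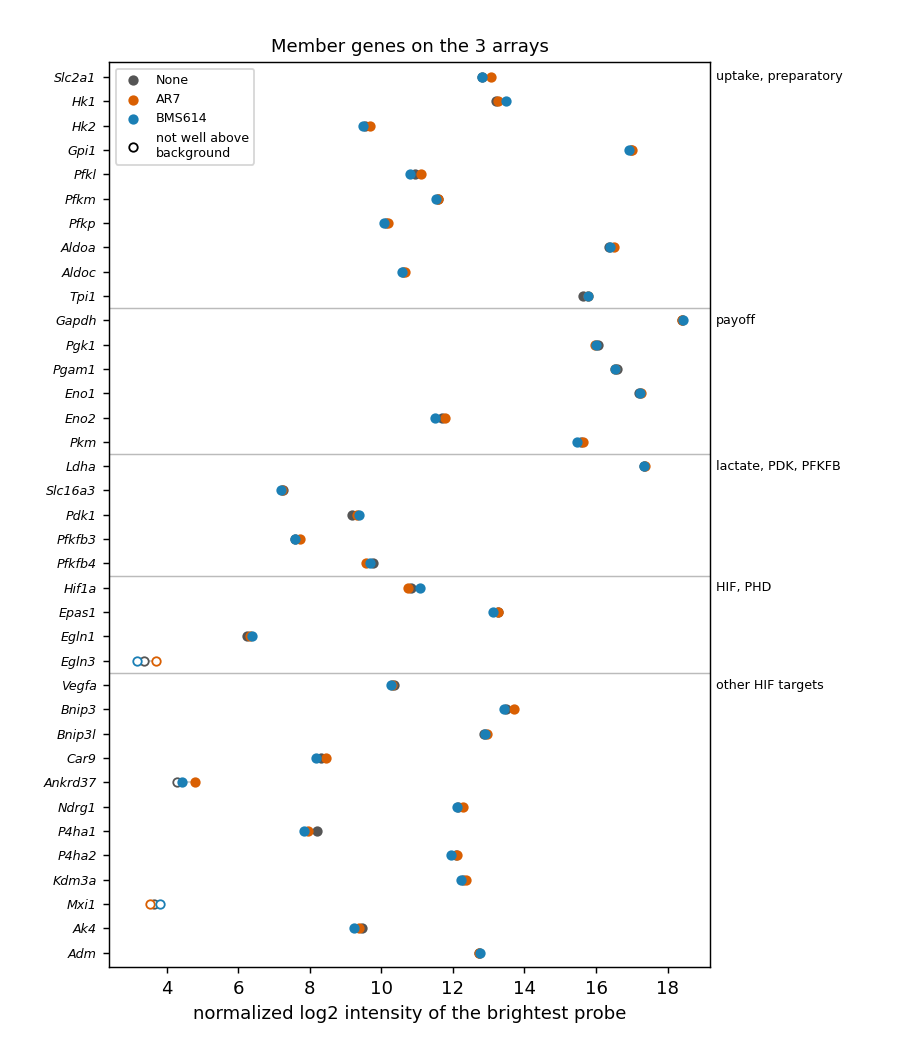
Normalized log2 intensity (x axis) of the brightest probe of each of the 37 genes (y axis, grouped by role) on the None, AR7 and BMS614 arrays, 1 array each, with open circles where the probe was not well above background. The 3 points of a gene nearly coincide for most genes, and Egln3, Mxi1 and Ankrd37 are the only genes with an open point.

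With AR7, 25 of the 34 genes were above None and 9 below, and the median difference was 0.06, against -0.0029 over all named genes. Under alternative processings the members' median was as low as 0.02. One member of 35 that could be compared was past 1.2-fold, Ankrd37, against a background of 15% of all named genes (8.28% higher and 6.72% lower). Most genes of that background were dim. Among genes with a mean log2 level of at least 8, 3.19% were past 1.2-fold, and so were 0 of the 30 members of that brightness. By its brightest probe no member was past 1.5-fold, where the background was 3.81%. The dimmer probes of Ak4 and P4ha1 were past it and are given below.

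With BMS614, 11 genes were above None and 22 below, with a median of -0.05 against 0.0008 over all named genes. Under alternative processings the members' median ran from -0.08 to -0.04. Past 1.2-fold were 2 members of 34, Hk1 higher and P4ha1 lower, against a background of 16.9% (9.05% higher and 7.83% lower) and of 5.03% among genes with a level of at least 8, where 1 of 30 members was counted. Past 1.5-fold the members numbered 0 and the background was 4.17%.

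Between the compounds, 24 genes were higher with AR7 than with BMS614 and 10 lower, and the median difference was 0.09 against -0.0014 over all named genes. Of 35 members, 6 were past 1.2-fold, against a background of 17.2%. The 5 higher with AR7 were Pfkl, Eno2, Bnip3, Car9 and Ankrd37, against a background of 8.57% in that direction, and the 1 lower was Hif1a, against 8.61%. Among genes with a level of at least 8, 5 of 30 members were past 1.2-fold and the background was 4.37%. The number past 1.2-fold was 3 in place of 6 when the scanner's processed signal was scaled to the 75th percentile. Those 3 were Eno2 at 0.29, Hif1a at -0.28 and Hk1 at -0.30, while Pfkl, Bnip3 and Car9 stood at 0.26, 0.24 and 0.24, under the limit. Ankrd37, which ran from 0.13 to 0.40 over all alternative processings, was under it too. None of the 6 was past 1.5-fold, where the background was 4.73%. Over genes of any brightness the share of members past the fold was thus under or near the background, and over the brighter genes it exceeded the background for AR7 against BMS614, by these counts of 1 array each. Both comparisons with None use the same None array, so their values are given side by side and no relation between them was computed.

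Read against the spot error instead of a fold, 6 members were higher and 1 lower with AR7 than None by more than 2 SD, which is 20.59% of 34 beside 19.0% of all named genes and 21.28% of those with a level of at least 8. With BMS614, 4 were higher and 9 lower, 38.24% beside 26.36% and 29.47%. Between AR7 and BMS614, 14 were higher and 2 lower, 47.06% beside 28.71% and 35.17%. Counted by probe, 43 of the 56 member probes above background on all arrays were higher with AR7 than with BMS614 (76.8%), against 49% of 17816 named probes.

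**Figure D2:**
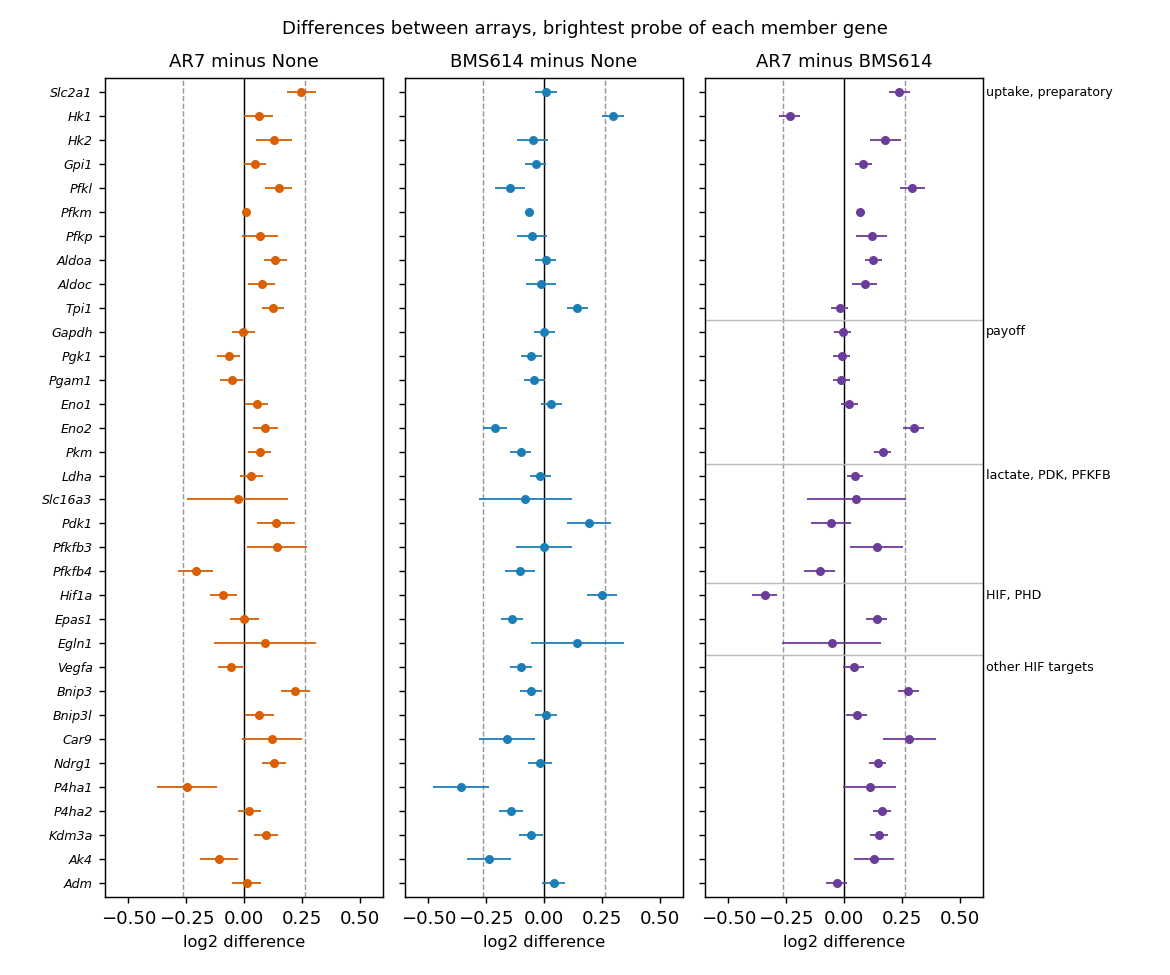
Log2 difference (x axes) between arrays for the 34 genes well above background on all 3, by role (y axis), with bars of 1 SD of repeated spots and dashed lines at 1.2-fold. Against None the AR7 points of uptake and the preparatory steps all lie at or above 0 in the processing plotted, and in the right panel Hif1a lies farthest to the left at -0.34 and Eno2 farthest to the right at 0.30.

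The 10 genes of uptake and the preparatory steps were all above None with AR7, by 0.01 to 0.25 with a median of 0.10. Pfkm, the smallest of these at 0.01, turned sign under 3 of 5 alternative processings. Among their other probes, those of Gpi1 and Tpi1 were above None with AR7 and those of Hk1 and Pfkp were at -0.08 and -0.15. By more than 2 SD 4 of the 10 were above None (40.0%) and 0 below. Of all 13802 named genes 19.0% were past 2 SD in either direction, with 1354 of them higher. With BMS614 the median of the 10 was -0.03, with 4 above and 6 below None. Slc2a1, the GLUT1 glucose transporter and a HIF target, had a level of 12.82 on None, 13.06 with AR7 and 12.82 with BMS614. The AR7 array stood alone, 0.25 above None (SD 0.06), while BMS614 differed from None by 0.01 (SD 0.05). At 1.19-fold it was just inside the 1.2-fold limit and was the highest AR7 difference among the 34 genes.

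Hk1, the hexokinase that traps glucose in most tissues, was the gene with the highest BMS614 difference. Its brighter probe read 13.19 on None, 13.26 with AR7 and 13.49 with BMS614, a BMS614 difference of 0.30 (SD 0.05). The BMS614 array was the high one, and None and AR7 differed by 0.06 (SD 0.06). Its other probe read 8.24, 8.16 and 8.16 in the same order, a BMS614 difference of -0.08 (SD 0.12), so the 2 probes of Hk1 disagreed. Hk2, the inducible hexokinase that HIF raises, read 9.55, 9.68 and 9.50, with the AR7 array highest and 0.18 above BMS614 (SD 0.07).

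Phosphofructokinase makes the committed step and has 3 genes, all lowest with BMS614. Pfkl, the liver-type subunit, had a level of 10.95 on None, 11.10 with AR7 and 10.80 with BMS614, so that None lay between the compounds. AR7 exceeded BMS614 by 0.30 (SD 0.05), and the differences from None were 0.15 with AR7 and -0.15 with BMS614. Pfkm, the muscle-type subunit, was printed on 10 spots, whose levels ran from 11.29 to 11.72 on None, from 11.35 to 11.74 with AR7 and from 11.33 to 11.67 with BMS614. Compared spot by spot, AR7 minus None had a mean of 0.01 ± 0.04 (SD over 10 spots), with 5 spots above 0. AR7 minus BMS614 was above 0 on 10 of 10 spots, from 0.02 to 0.12. The spots share one hybridization per array and are no replicates of the cultures. Pfkp, the platelet-type subunit, read 10.13, 10.20 and 10.08 by its brighter probe. Its other probe read 8.23 on None, 8.07 with AR7 and 7.82 with BMS614, a BMS614 difference of -0.40 (SD 0.12) where the brighter probe gave -0.05 (SD 0.07).

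Aldoa and Aldoc, aldolases that split fructose-1,6-bisphosphate, were 0.14 and 0.08 above None with AR7. The Aldoa value was as low as 0.04 under the alternatives. The BMS614 differences of Aldoa and Aldoc were 0.01 and -0.01, of no settled sign under the alternatives. Gpi1, glucose-6-phosphate isomerase, was above None with AR7 by 3 of 3 probes, from 0.05 to 0.19. Tpi1, the triose phosphate isomerase, was above None by 0.12 with AR7 and 0.14 with BMS614 on its brighter probe. Under the alternatives these values were as low as 0.04 and 0.05. The other Tpi1 probe gave 0.03 and -0.18, so the BMS614 direction of Tpi1 differed between its probes.

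The payoff genes lay closer to None with AR7 (median 0.02, 3 above and 3 below None, from -0.07 to 0.09), and none passed 2 SD. Gapdh, the dehydrogenase that makes NADH and a common reference gene, had 7 probes. They gave AR7 differences from -0.04 to 0.07 and BMS614 differences from -0.18 to 0.18, a spread of 0.36 among the probes of one gene. The brightest Gapdh probe read 18.42, 18.41 and 18.42, but it ranked 24, 25 and 24 from the top on None, AR7 and BMS614, and quantile normalization gives equal ranks equal values. With scaling to the 75th percentile after the same background correction, that probe was -0.08 from None with AR7 and -0.23 with BMS614.

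Pgk1 and Pgam1, the phosphoglycerate kinase and mutase, lay 0.07 and 0.05 below None with AR7 and 0.06 and 0.04 below it with BMS614. Eno1, the ubiquitous enolase, was 0.05 and 0.03 above, and both values were below 0 under 4 of 5 alternative processings, down to -0.04 and -0.12. Eno2, the neuronal enolase that HIF also raises, behaved otherwise, with a level of 11.70 on None, 11.79 with AR7 and 11.49 with BMS614. The BMS614 array was the low one by -0.21 (SD 0.05), and AR7 exceeded it by 0.30 (SD 0.05), the highest such difference of the 34 genes. Pkm, pyruvate kinase, read 15.58, 15.65 and 15.48, with AR7 0.17 above BMS614 (SD 0.04). Several glycolytic genes have processed copies elsewhere in the genome, Gapdh above all, and a probe may also bind such transcripts.

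At the branch after pyruvate, Ldha, the lactate dehydrogenase subunit and a HIF target, read 17.35 on None, 17.38 with AR7 and 17.33 with BMS614 by its brightest probe. Its other probes gave BMS614 differences of -0.25 and -0.27 (SD 0.05 each) and AR7 differences of -0.14 and -0.07. All 3 Ldha probes were thus lowest with BMS614, although only the dimmer ones were more than 2 SD from None. Slc16a3, the lactate exporter MCT4, had differences from -0.13 to -0.01 over both probes and compounds, with SDs of 0.20 to 0.22. Pdk1, which holds back pyruvate dehydrogenase, read 9.17, 9.31 and 9.37, so both compounds lay above None, by 0.14 (SD 0.08) and 0.19 (SD 0.10). Pfkfb3 and Pfkfb4 set fructose-2,6-bisphosphate, the activator of phosphofructokinase. Pfkfb3 was 0.14 above None with AR7 (SD 0.13) and equal to it with BMS614. Pfkfb4 read 9.78 on None, 9.57 with AR7 and 9.67 with BMS614, both compounds below None, AR7 by -0.21 (SD 0.08). One further probe of each PFKFB gene was above background on no array.

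Among the regulators, Hif1a, the alpha subunit of HIF-1, had a level of 10.83 on None, 10.74 with AR7 and 11.08 with BMS614. The BMS614 array was the high one, 0.25 above None (SD 0.07), and AR7 was -0.34 from BMS614 (SD 0.05), the lowest such difference of the 34 genes. Epas1, the alpha subunit of HIF-2, read 13.25, 13.25 and 13.11. It was thus low with BMS614 by -0.14 (SD 0.05) where Hif1a was high, and its remaining 2 probes were above background on no array. Egln1, the main prolyl hydroxylase PHD2, read 6.24, 6.33 and 6.38, with differences under its SD of 0.20 to 0.22. Egln3, the hydroxylase PHD3 that HIF induces, was well above background on none of the arrays by either of its 2 probes.

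The other HIF targets lay on both sides of None with AR7 (7 above and 3 below of 10, median 0.04). With BMS614, 8 of the 10 were below None, with a median of -0.08. Between the compounds 9 of 10 were higher with AR7, by a median of 0.14. Bnip3, which marks mitochondria for removal, had 3 probes above background. Its brightest probe read 13.49 on None, 13.71 with AR7 and 13.43 with BMS614. AR7 was the high array, 0.22 above None (SD 0.06) and 0.28 above BMS614 (SD 0.04). The other 2 Bnip3 probes also had AR7 highest, by 0.16 and 0.11 over None. Its relative Bnip3l had 4 probes with AR7 differences from -0.06 to 0.07, which did not share a sign.

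Car9, the cell-surface carbonic anhydrase that is among the genes most tightly tied to HIF-1, read 8.32, 8.44 and 8.16. None lay between the compounds, and AR7 exceeded BMS614 by 0.28 (SD 0.11). Ankrd37, a small ankyrin-repeat protein induced by HIF-1, read 4.78 with AR7, 4.42 with BMS614 and 4.29 on None, where it was not well above background. Its AR7 level was at least 1.22-fold that of None, a log2 bound of 0.28, and 0.36 above BMS614, with SDs of 0.39 and 0.38. Both Ankrd37 differences were thus smaller than the spot error at that signal. Ndrg1, a stress-responsive gene, read 12.14 on None, 12.27 with AR7 and 12.12 with BMS614. Kdm3a, a histone demethylase, was 0.15 higher with AR7 than with BMS614 (SD 0.04).

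P4ha1 and P4ha2 are the catalytic subunits of the collagen prolyl hydroxylase. P4ha1 read 8.20 on None, 7.95 with AR7 and 7.84 with BMS614, so both compounds lay below None. The differences were -0.25 for AR7 (SD 0.13) and -0.36 for BMS614 (SD 0.12), the lowest of the 34 genes against None in each case. Its dimmer probe read 6.32, 5.61 and 5.83, with differences of -0.72 (SD 0.39) and -0.50 (SD 0.33), the same direction by both probes. Under the alternatives these 2 values of the dimmer probe ran from -0.64 to -0.25 and from -0.42 to -0.19. P4ha2 read 12.09, 12.12 and 11.95 and was low only with BMS614, by -0.14 (SD 0.05). Vegfa, the angiogenic growth factor, was below None by 0.06 with AR7 and 0.10 with BMS614 on its brighter probe. Its other probe differed from None by 0.04 with AR7 (SD 0.13) and -0.05 with BMS614 (SD 0.12). Adm, the vasodilator peptide adrenomedullin, was 0.01 above None with AR7, which turned sign under 4 of 5 alternatives, and 0.04 with BMS614. Mxi1, a partner of MAX that opposes MYC, was well above background on none of the arrays.

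**Figure D3:**
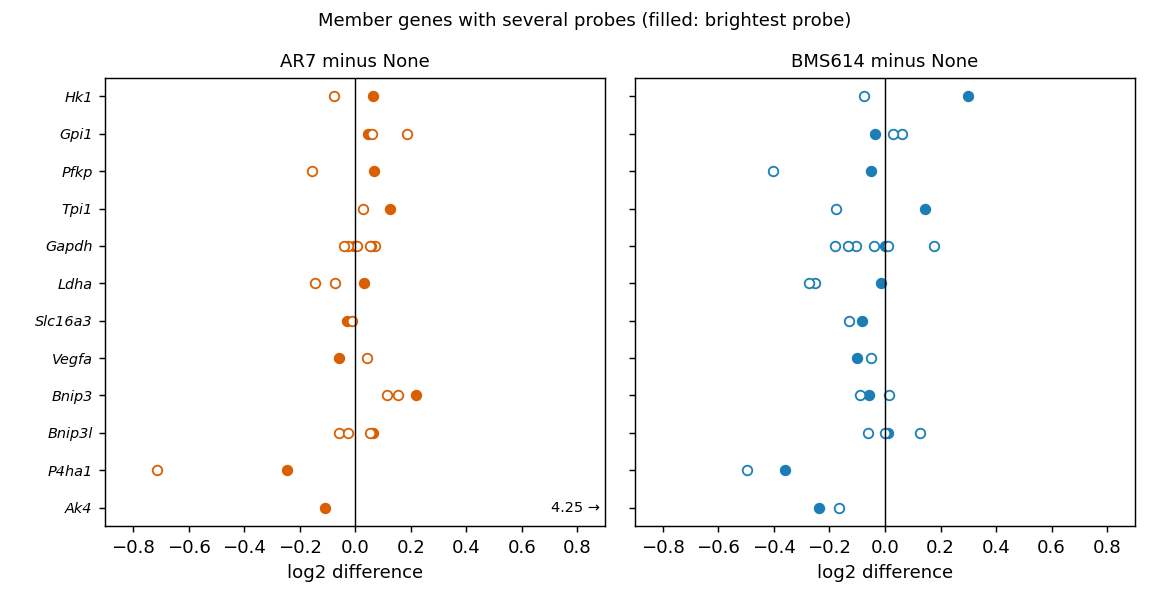
Log2 difference from None (x axes) for the 12 genes with more than 1 probe well above background on all 3 arrays (y axis), AR7 on the left and BMS614 on the right, with the brightest probe filled and the others open. Probes of Bnip3 and P4ha1 share a side of 0 with AR7, those of Hk1 and Tpi1 lie on both sides with BMS614, and the dimmer Ak4 probe lies beyond the left panel's axis at 4.25.

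Ak4, a mitochondrial adenylate kinase that HIF-1 raises, gave different answers by probe. Its brighter probe read 9.47 on None, 9.36 with AR7 and 9.23 with BMS614, differences of -0.11 (SD 0.08) and -0.24 (SD 0.10). Its dimmer probe read 5.70 on None, 9.94 with AR7 and 5.53 with BMS614. The AR7 value was 4.25 above None (SD 0.22), 18.97-fold, and ran from 2.94 to 4.39 on the log2 scale under the alternatives, the lowest with normexp background, while BMS614 was -0.17 from None (SD 0.20). Among the 30289 probes that cleared background on each array, only this one differed so far between AR7 and None in either direction. The other probes ran from -2.63 to 2.27. Both Ak4 probes are single spots. The 2 probes were matched to the same RefSeq entry, and which part of the gene each binds was not tested.

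Before any correction the spot of the dimmer probe had a median pixel intensity of 155 on None, 1088.5 with AR7 and 182.5 with BMS614. Of the 6 spots nearest to it, which belong to other probes, 3 were at least 2-fold higher with AR7 than on None and 0 with BMS614. These 3 were well above background with AR7 and not on None, so their log2 differences have only bounds, of at least 1.70, 1.39 and 1.00. Counted with such bounds, 0.562% of 35777 spots were 2-fold higher with AR7 than on None. Before correction these 3 dim neighbours read 120, 118 and 131.5 on None and 199, 185 and 177 with AR7. The neighbour Usb1 was 0.62 higher, and the 2 bright neighbours differed by -0.05 and -0.27. The part of whatever these neighbouring spots share in the Ak4 value was not tested. The other adenylate kinases, 6 of 7 of which were above background on all arrays, lay from -0.08 to -0.01 with AR7, so none of them was above None.

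**Figure D4:**
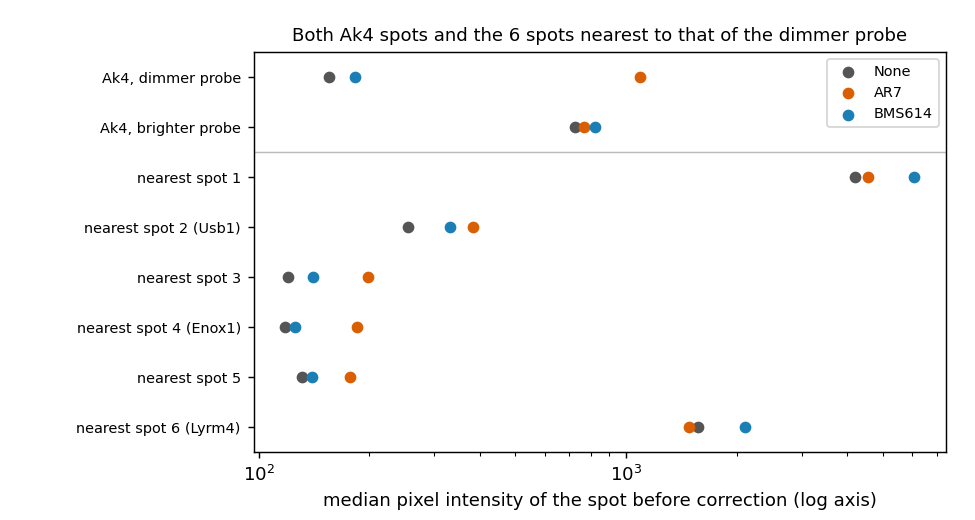
Median pixel intensity before correction (x axis, log scale) of the spots of both Ak4 probes and of the 6 spots nearest to that of the dimmer probe (y axis) on the None, AR7 and BMS614 arrays. The dimmer Ak4 probe stands at 1088.5 with AR7 against 155 on None, the brighter one changes little, and 3 dim neighbours also read higher with AR7.

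The same pathways were read from genes outside the set. Of 28 other glycolysis genes, 20 were above background on all arrays and their medians against None were 0.0013 with AR7 and 0.03 with BMS614. They numbered 0 higher and 1 lower past 1.2-fold with AR7, 0 and 0 with BMS614, and 1 and 1 for AR7 against BMS614, where their median was -0.08. Of 43 other HIF pathway genes matched, 35 were above background on all arrays. Past 1.2-fold were 2 higher and 0 lower with AR7, and 1 higher and 2 lower with BMS614. For AR7 against BMS614 they were 4 higher and 2 lower. The medians were 0.02, 0.02 and 0.01. Of all 13802 named genes above background on all arrays, 803 were higher and 851 lower past 1.2-fold with AR7. With BMS614 these were 936 and 1011, and for AR7 against BMS614 818 and 818. In the last comparison the 34 members had a median of 0.09.

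Of these genes above background on all arrays, 3 were past 1.5-fold in some comparison. Ddit4, an inhibitor of mTORC1 that stress and hypoxia induce, had a level of 12.97 on None, 12.91 with AR7 and 13.50 with BMS614. It was high with BMS614 alone, 0.53 above None (SD 0.05), and -0.59 for AR7 against BMS614 (SD 0.04). Hif3a, a further HIF alpha subunit, read 6.50, 6.41 and 5.88, a BMS614 difference of -0.61 (SD 0.20). Ciart, a circadian repressor, read 5.22, 5.26 and 4.66, with AR7 0.60 above BMS614 (SD 0.38). Fbp1 and Fbp2, the fructose-1,6-bisphosphatases of gluconeogenesis, were above background on 1 array each, BMS614 for Fbp1 and AR7 for Fbp2. They have only bounds for AR7 against BMS614, -1.20 and 1.35 (SD 0.38 each). Past 2-fold in that comparison were 1.05% of 15280 named genes. Fbp1 read 5.04 on None, where it was not well above background, close to its 5.13 with BMS614.

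**Figure D5:**
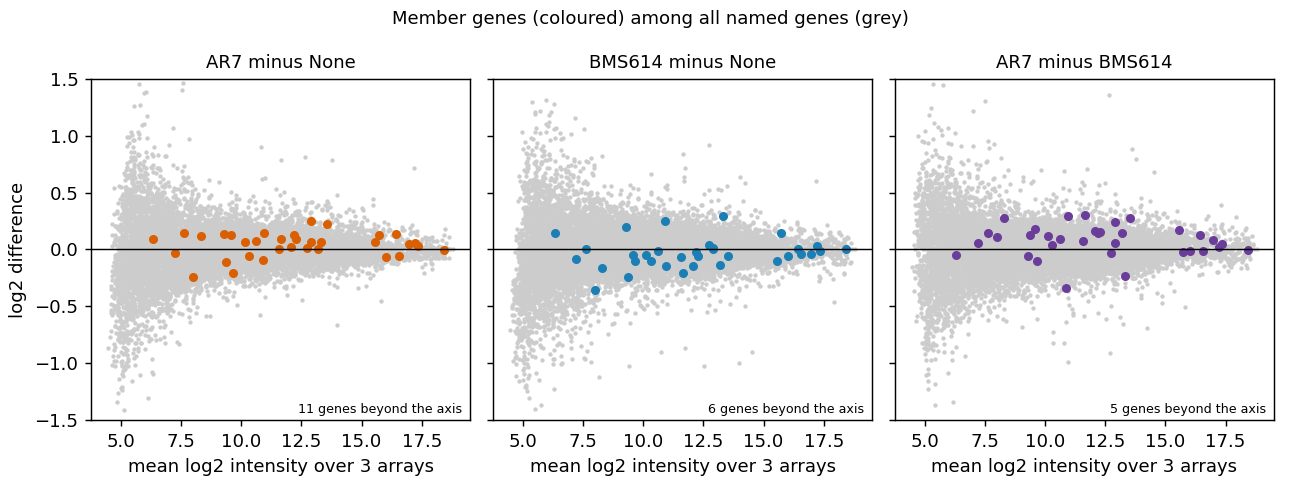
Log2 difference between arrays (y axes) against mean log2 intensity over the 3 arrays (x axes) for all 13802 named genes above background on all arrays (grey) and the 34 members (coloured), with 11, 6 and 5 genes beyond the axes. The members sit within the grey cloud in each panel, and the cloud widens at low intensity, where few members lie.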

How the data were processed

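The 3 arrays were scanned with Agilent Feature Extraction 10.7.3.1 per the file headers. The authors deposited the intensity of each spot, with no normalization across arrays, together with processed intensity values in 1 table. Each column of the latter was linear in its array's background-subtracted intensity (Pearson's r of 1.0 over 55249 probes, medians 70.7, 67.5 and 65.0 for AR7, BMS614 and None). The scale and direction of that table were thus settled, whereas the methods name RMA with the oligo package. It served as an alternative, with values under 16 set to 16.

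Samples were grouped by the treatment in their labels. The median pixel intensity of each spot was corrected with the RMA convolution background, quantile-normalized over the 3 arrays (R 4.3.3, limma 3.58.1) and converted to log2. Controls and outlier spots were left out, and spots of a probe were averaged. The rest used Python 3.11.15, numpy 2.4.6, pandas 2.3.3 and matplotlib 3.10.9. RefSeq accessions were matched to a GRCm38.p6 gene table, which named 27229 of 55681 probes (48.9%). The array design was built on an earlier assembly, and only the promoter windows carry coordinates, from RefSeq on GRCm38.p6.

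A probe not well above background on one of the 2 arrays compared has only a bound there. The genes named are all members, listed pathway genes above background on all arrays and past 1.5-fold, and some of the listed cell type markers. Members with a probe past 1.2-fold were described singly, and so were some without one. Usb1, Fbp1 and Fbp2 were named after their values were seen. The members and lists were chosen with earlier results of these data known. Precision is limited by the 1 array per condition, all on one slide. Quantile normalization removes any shift shared by most probes. The alternatives were 75th percentile scaling, normexp background (offset 50), spike-in scaling (268 spots), the deposited table, all probes of a gene, filters on dim genes, and other folds.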

Additional observations from a re-analysis of the deposited data

How the results depend on the processing

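No paired analysis was possible because only 1 array stood for a condition. No array could be left out either, and no depth exists beyond the signal over background. The use of the mean pixel intensity in place of the median was planned and could not be run, since the columns used here hold no mean pixel intensity. The number of members past 1.2-fold for AR7 against None was 1. It fell to 0 with the processed signal scaled to the 75th percentile, normexp background or the deposited table. It was also 0 with only genes above background on all 3 arrays or a mean level of at least 8. With all probes of a gene averaged it was 2, namely P4ha1 and, through its dimmer probe, Ak4, and not Ankrd37. For BMS614 against None the number, 2, was 1 with normexp background, with all probes averaged and with a mean level of at least 8. For AR7 against BMS614 the number, 6, was 3 with the processed signal at the 75th percentile and 4 with normexp background. It was 5 with the deposited table, all probes averaged, genes above background on all arrays or a mean level of at least 8. The 5 with all probes averaged held Ak4, through its dimmer probe, and neither Bnip3 nor Ankrd37. At 1.5-fold and at 2-fold all 3 numbers were 0 by the brightest probes. The median for AR7 against BMS614, 0.0863, was 0.126 with RMA background and 75th percentile scaling and 0.1265 with spike-in scaling. With the deposited table the median for AR7 against None, 0.0643, was 0.0216. That for BMS614 against None, -0.0454, was -0.0838 there. The cause of these changes was not tested, except that stricter folds and filters leave fewer genes. Spike-in scaling shifted the all-gene median by 0.18 for AR7 and 0.34 for BMS614 against None and by -0.16 between them, and changes were taken relative to that. The sign of a member probe's difference turned under at least 1 alternative for 14 of 57 probes (AR7 against None), 13 of 56 (BMS614 against None) and 8 of 57 (AR7 against BMS614), and for 0 of the 3, 5 and 7 past 1.2-fold. The probes that turned against None include the brightest of Pfkm, Adm, Eno1, Epas1, Ldha, P4ha2 and Slc16a3 for AR7 and of Aldoa, Aldoc, Eno1, Gapdh, Ndrg1, Slc16a3 and Slc2a1 for BMS614. The Ak4 value of 4.25 ran from 2.94 to 4.39.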
